A study of Mus musculus with 55 samples.

Results

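The genes described here encode 8 transcription factors of the macrophage lineage: Spi1, Cebpa, Cebpb, Cebpd, Maf, Mef2c, Runx1 and Bhlhe40. Their regulatory regions were followed in mouse macrophages given the bacterial product LPS, with or without the milk sugar 3'sialyllactose (3'SL). A region belonged to a gene where the deposited annotation named it as the nearest gene and placed the region within 100 kb of its start. That rule took 126 of 97113 regions, and 8 of the 18490 genes that had a region within that distance. Spi1 had 6 regions, Cebpa 9, Cebpb 4, Cebpd 13, Maf 22, Mef2c 26, Runx1 42 and Bhlhe40 4. A further 67 regions of Maf, Mef2c and Runx1 lay farther away and were left out of the sums.

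The cells were bone marrow-derived macrophages of C57BL/6 mice, grown in L-cell conditioned medium as a source of M-CSF and then held overnight in medium low in serum. They received PBS as vehicle, 3'SL at 100 µg/ml, LPS at 10 ng/ml, or both agents together, and were taken after 2 h or 6 h. Separate macrophages, used only for peak lists of LXR, SREBP and p300, had 18 h of GW3965, an agonist of LXR, at a dose of 1 µM. No group carried a genetic change. Histone H3 acetylated at lysine 27 (H3K27ac) and the acetyltransferase p300 were measured by chromatin immunoprecipitation and sequencing over a common set of open chromatin regions from ATAC-seq. Per the series design, the ATAC list was merged over re-analysed samples of untreated macrophages and of macrophages given KLA for 1 h. Each treatment had 2 libraries, numbered replicate 1 and replicate 2, but PBS was left with replicate 2 alone in 3 settings: at 6 h in H3K27ac, and at either time in p300. The labels do not say whether replicates came from separate mice or cultures, so p-values measure the spread between these libraries, which may be technical.

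Acetylated H3K27 is found at promoters and enhancers in use, and p300 is one of the enzymes that writes it. PU.1, the product of Spi1, is an ETS factor that opens chromatin at macrophage enhancers, where it often binds together with the C/EBP factors. Cebpa acts early in the choice of the myeloid fate, while Cebpb and Cebpd are C/EBP genes known to be induced in inflammation. Maf encodes c-Maf, which is known for driving anti-inflammatory genes such as Il10, and Mef2c, Runx1 and Bhlhe40 complete the group as factors of myeloid development and macrophage function.

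Values are normalised tags: sequenced fragment ends in a window of 1000 bp (H3K27ac) or 200 bp (p300) at each region, per 10000000 mapped tags, rescaled for the tags each library had in regions. H3K27ac libraries of replicate 1 held 11.4 to 16.8 M tags (M, 1000000) with 42.6% to 64.8% in regions, and those of replicate 2 held 4.20 to 39.6 M with 72.4% to 79.3%. For p300 the ranges were 13.6 to 18.1 M with 6.12% to 9.42% in replicate 1, and 3.20 to 8.75 M with 20.1% to 27.5% in replicate 2. The replicates therefore stood apart, and differences within a replicate are given beside the fitted ones. Where PBS had 1 library, the fitted change also holds the difference between replicates. The treatment label of the LPS, 3'SL and combined H3K27ac libraries of replicate 1 at 2 h says 1 h, and 2 combined libraries of replicate 2 carry the word input in another label. Titles were followed in both cases. The PBS library of replicate 1 taken as 2 h is titled with a 2 that may be a serial number, and an untimed PBS library stayed out of the fits.

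Macrophage markers were the strongest of the cell type lists. Summed H3K27ac over 8 macrophage genes with a region was 13193 to 18057 in the libraries with LPS and 12397 to 17469 in those without. T cell genes with a region (3 of 6 listed) summed to 231 to 340.0 and 205 to 289, and the neutrophil and granulocyte precursor list (8 of 8) to 161 to 399 and 192 to 335. B cell genes (2 of 5) summed to 553 to 1610.1 and 769 to 1322, and dendritic cell genes (4 of 5) to 485 to 1503 and 528 to 1522. Erythroid (1 of 5) and stromal genes (4 of 5) summed to 26.5 to 56.5 and 40.5 to 68.8, and to 271 to 568 and 270.4 to 384. The ranges with and without LPS overlapped in each of these lists, and their part in the results was not tested. Among granulocyte genes, Elane and Mpo had H3K27ac medians of 12.6 and 12.3, Ltf 82.8, S100a8 46.0 and Prtn3 43.3, and Ly6g, S100a9 and Camp were at 0 in at least 1 library. The B cell sum was almost wholly Ms4a1, with a median of 1213 beside 1.27 for Cd22. In the dendritic cell list the median was 858 for Xcr1 and at most 122 for the rest. In the stromal list it was 321 for Pdgfrb and at most 8.46 for the rest. Fewer cells carrying a mark and less mark per cell cannot be told apart in such bulk libraries.

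The regions on which the results turn are shown first. Each is 201 bases long, spanning the window in which p300 was counted, on the plus strand of mm10, read from the RefSeq copy of that build. Capitals mark a match to one of 9 short motifs searched on both strands, and a sequence wholly in lower case held none. The first is from the Cebpd region 97.1 kb downstream of the start (chr16:15984296-15984496), which lies in intron 7 of Spidr, a gene for a scaffolding protein in DNA repair. The second is the Spi1 region 10.2 kb upstream (chr2:91086406-91086606, intergenic). The third is the Cebpa region 1.18 kb upstream (chr7:35118016-35118216, annotated as intergenic). The fourth and the fifth are Maf regions 92.6 kb and 94.6 kb downstream (chr8:115614237-115614437 and chr8:115612160-115612360, both intergenic). The sixth is the Runx1 region at 24.3 kb, in intron 2 of Runx1 itself (chr16:92801639-92801839).
Cebpd +97.1 kb: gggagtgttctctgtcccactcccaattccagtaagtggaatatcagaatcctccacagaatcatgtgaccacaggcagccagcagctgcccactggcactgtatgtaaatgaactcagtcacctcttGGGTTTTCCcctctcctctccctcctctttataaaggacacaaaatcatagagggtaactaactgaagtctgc
Spi1, 10.2 kb upstream: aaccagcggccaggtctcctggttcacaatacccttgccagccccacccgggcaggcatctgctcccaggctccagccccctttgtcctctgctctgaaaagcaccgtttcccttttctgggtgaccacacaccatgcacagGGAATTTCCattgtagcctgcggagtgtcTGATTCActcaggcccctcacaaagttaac
Cebpa, 1.18 kb upstream: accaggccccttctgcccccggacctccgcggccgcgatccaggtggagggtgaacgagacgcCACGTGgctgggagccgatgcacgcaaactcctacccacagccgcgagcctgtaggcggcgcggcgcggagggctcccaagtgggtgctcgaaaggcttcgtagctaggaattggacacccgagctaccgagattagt
Maf +92.6 kb: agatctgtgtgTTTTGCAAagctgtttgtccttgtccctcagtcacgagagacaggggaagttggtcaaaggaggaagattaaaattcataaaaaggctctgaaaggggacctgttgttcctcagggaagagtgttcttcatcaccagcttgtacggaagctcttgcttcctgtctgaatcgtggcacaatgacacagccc
Maf +94.6 kb: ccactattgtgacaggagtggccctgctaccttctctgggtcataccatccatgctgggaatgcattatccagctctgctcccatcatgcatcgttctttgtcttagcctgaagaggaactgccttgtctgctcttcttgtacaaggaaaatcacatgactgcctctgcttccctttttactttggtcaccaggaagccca
Runx1 +24.3 kb: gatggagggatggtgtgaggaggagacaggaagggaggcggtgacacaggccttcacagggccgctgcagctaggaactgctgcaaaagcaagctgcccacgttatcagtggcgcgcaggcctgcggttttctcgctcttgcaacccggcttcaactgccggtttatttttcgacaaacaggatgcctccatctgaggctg

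The Cebpd window holds GGGTTTTCC, a match to the NF-kB pattern GGNNTTTCC, at bases 129 to 137. The Spi1 window matches the same pattern as GGAATTTCC, and the AP-1 pattern TGANTCA as TGATTCA. The Cebpa window holds the E-box CACGTG, and the Maf window at +92.6 kb holds the C/EBP pattern TTGCNNAA on the minus strand. NF-kB is the factor that LPS signalling is best known to activate. Its pattern was in 8 of 126 member windows (6.35%) and in 5.43% of all 97113 windows. Among the member regions that passed the test below in either mark, it was in 2 of 3 that rose and 0 of 9 that fell. C/EBP matches were in 14.3% of member windows against 10.3% of all, AP-1 in 22.2% against 17.2%, and PU.1/ETS (GAGGAAGT) in 8.73% against 9.69%. RUNX (TGTGGTT) was in 7.14% against 6.97%, MEF2 (TATTTNTAG) in 3.97% against 1.12%, IRF (GAAANNGAA) in 8.73% against 7.83%, STAT (TTCNNNGAA) in 3.97% against 5.73% and the E-box in 3.17% against 3.69%. Of the 3 regions that rose and the 9 that fell, AP-1 matches were in 1 and 1, and RUNX matches in 1 and 0. C/EBP, IRF and E-box matches were each in 0 and 1, and PU.1/ETS, STAT and MEF2 matches in none. For no motif is a share over all regions that rose or fell given, so these counts describe the members only. A match describes the letters only.

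H3K27ac was densest at Spi1. Per 1000 bp region, the median over 15 libraries, with the lowest and highest library in brackets, was 644 (431 to 1036) normalised tags for Spi1, 173 (74.7 to 277) for Cebpd, 140.4 (74.8 to 288) for Bhlhe40 and 135 (119 to 151) for Runx1. It was 131 (90.3 to 196) for Maf, 102 (41.04 to 174) for Cebpa, 100.1 (75.4 to 157) for Mef2c and 84.3 (63.04 to 119) for Cebpb. The lowest Spi1 library was above the highest library of each of the other 7 genes, while each neighbouring pair below Spi1 overlapped. For p300, per 200 bp region, Runx1 had 48.6 (39.97 to 64.4) and Spi1 45.9 (23.1 to 96.1), and these 2 overlapped. Maf followed at 26.4 (13.2 to 35.7), and the other 5 genes had medians between 14.6 and 19.4. In the 2 H3K27ac inputs, on the authors' scale, the summed values were at most 382 tags (Runx1), against at least 4657 in any H3K27ac library of that gene. The p300 input lay closer to its signal: 39.4 tags for Cebpa, against 20.6 to 315 in the p300 libraries on the same scale. It was 38.2 for Cebpb, against 19.1 to 270, and 40.65 for Cebpd, against 36.5 to 777. For Mef2c and Bhlhe40 it was 97.1 and 16.4, just below lowest libraries of 107 and 18.4. For Spi1, Maf and Runx1 the lowest library was farther above the input.

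**Figure D1:**
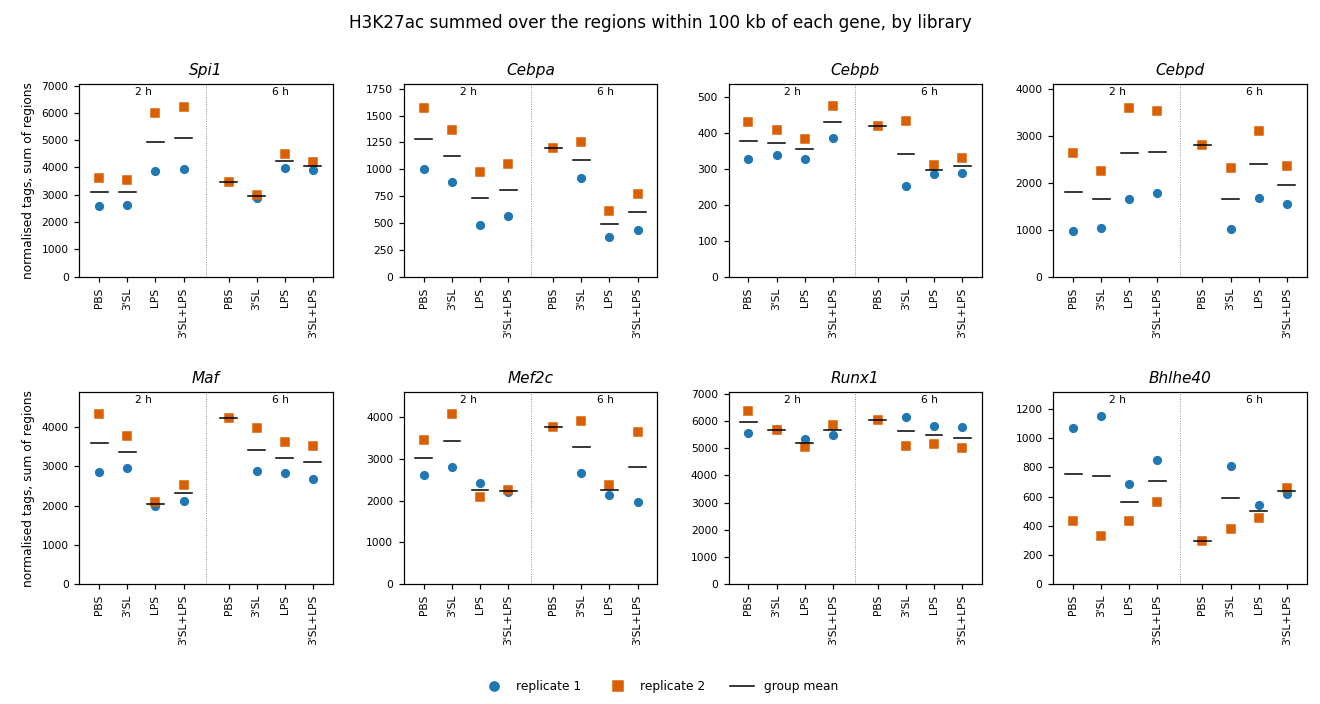
H3K27ac summed over the regions within 100 kb of each gene (y axis, normalised tags, from 0) in each library by treatment and time (x axis); circles are replicate 1, squares replicate 2, and bars group means. Libraries with LPS lie below those without it in the same replicate and time for Cebpa, Maf and Mef2c, and above them for Spi1, while the replicates stand apart for Cebpd.

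In a fit that took no account of the replicate number, LPS changed acetylation at a small share of the members' regions, more often downward than upward at 2 h. Of 121 member regions that passed the filter on low tags, 3 rose (2.48%) and 8 fell (6.61%) between PBS and LPS at 2 h, where 3.08% of all 77387 tested regions rose and 2.07% fell (limma, adjusted p under 0.05, two-sided). The regions that rose belonged to Spi1 and Cebpd, and those that fell to Cebpa, Maf and Runx1. Since neighbouring windows overlap, the 11 regions make up 7 separate stretches. The median log2 change over the member regions was -0.28, beside 0.01 over all regions. At 6 h, 2 rose and 1 fell, against 0.544% and 0.132% of all regions, with a median of -0.15 beside -0.01. On the authors' scaling 2 rose and 5 fell at 2 h, and 2 rose and 0 fell at 6 h. At an unadjusted p under 0.05 there were 33 member regions at 2 h and 20 at 6 h. For that threshold, here and below, and for the authors' scaling and left-out libraries, no share over all regions or genes is given. Such counts describe the members only. The calls depended on single libraries: leaving out 1 library gave 3 to 7 called regions at 2 h (3 without the PBS library of replicate 2, 4 without LPS replicate 1, 6 without LPS replicate 2 and 7 without PBS replicate 1) and none at 6 h without either LPS library.

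**Figure D2:**
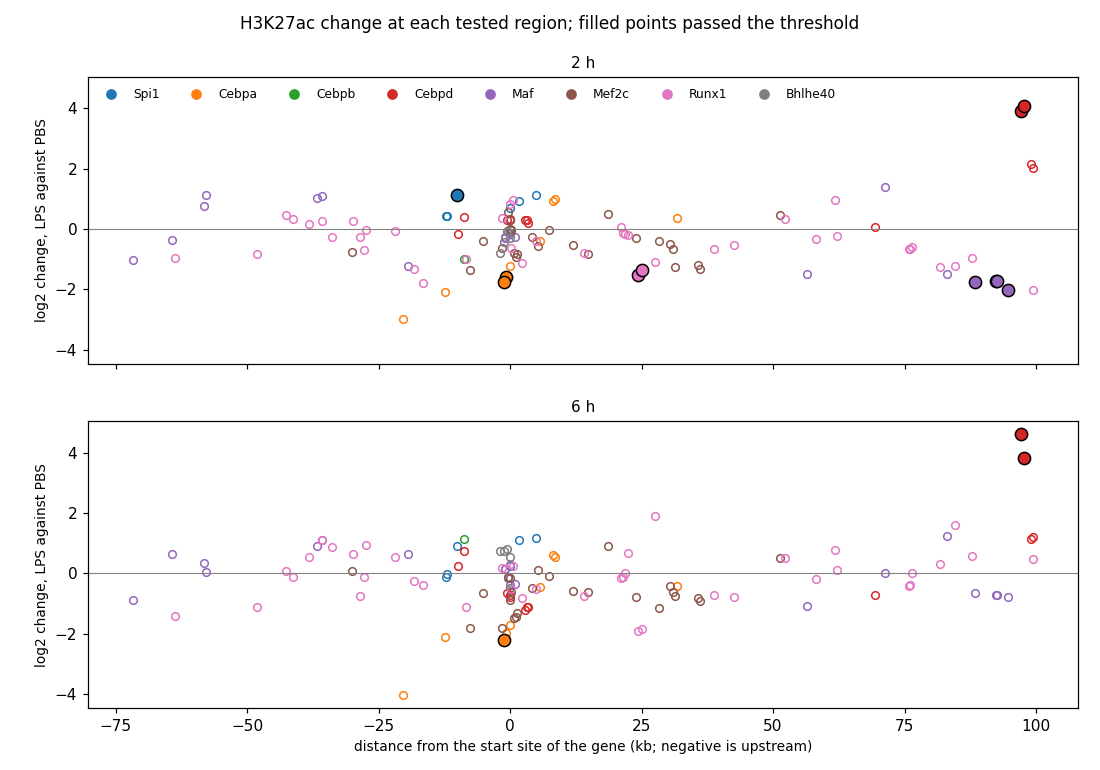
Log2 change of H3K27ac between PBS and LPS (y axis) at each tested member region by distance from the gene's start (x axis, kb) at 2 h (top) and 6 h (bottom); filled points passed the threshold. The 2 Cebpd regions near +97 kb lie between 3.81 and 4.61 at both times, and the Maf regions near +90 kb lie low at 2 h and closer to 0 at 6 h.

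For p300, 104 member regions passed the filter. At 2 h 1 rose and 2 fell, against 2.15% and 0.154% of all 62225 regions, and at 6 h 1 rose and 1 fell, against 0.400% and 0.0225% (limma). By edgeR on whole tags, 1 region rose and 0 fell at 2 h (0.112% and 0.0145% of all), and 0 passed at 6 h, where 0% of all regions rose and 0% fell. At an unadjusted p under 0.05, limma gave 18 member regions at 2 h and 7 at 6 h. Medians were -0.09 over the members and 0.11 over all regions at 2 h, and -0.26 and -0.05 at 6 h. Without either LPS library, 1 member region was called at 2 h and 0 at 6 h. On the authors' own scaling 0 member regions passed at either time, and the median of all p300 regions moved from 0.11 to -0.68 at 2 h and from -0.05 to -0.95 at 6 h.

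Summed over its regions, 0 of the 8 genes passed in either mark at either time in the fit without a replicate block. Among all genes tested by sums, 3.48% rose and 2.27% fell in H3K27ac at 2 h, 0.401% and 0.168% at 6 h, 1.54% and 0.163% in p300 at 2 h, and 0.125% and 0.0125% at 6 h. At an unadjusted p under 0.05 the members gave 1 gene in H3K27ac at each time (Maf at 2 h, Cebpa at 6 h) and 4 in p300 at 2 h (Spi1, Cebpd, Maf and Mef2c) and 1 at 6 h (Cebpa). Also without a block, DESeq2 called 1 member at 2 h in H3K27ac, Maf, and edgeR called 0 in each of the 4 comparisons. This result depended on the block. With the replicate number as a block, 4 of the 8 H3K27ac sums passed at 2 h by limma and by edgeR. These were Spi1, Cebpd, Cebpa and Maf, where 23.3% and 23.6% of all sums passed. Results of the block for the other comparisons are given with the processing below. In the paragraphs on single genes, passing refers to the fit without it.

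Spi1, the gene of PU.1, had higher sums in most libraries with LPS, but the difference did not pass in either mark. At 2 h the H3K27ac sums were 2589 with PBS, 2643 with 3'SL, 3864 with LPS and 3929.7 with both in replicate 1, and 3609 with PBS, 3554 with 3'SL, 5998 with LPS and 6218 with both in replicate 2. At 6 h they were 2897 with 3'SL, 3988 with LPS and 3899 with both in replicate 1, and 3484 with PBS, 2980.0 with 3'SL, 4487 with LPS and 4206 with both in replicate 2. Both libraries with LPS lay above those without it in each replicate at each time. The fitted log2 change from PBS was 0.66 ± 0.31 (SE; adjusted p = 0.28) at 2 h, with 0.58 within replicate 1 and 0.73 within replicate 2, and 0.28 ± 0.38 (SE; adjusted p = 0.844) at 6 h, with 0.36 within replicate 2. The sums of p300 at 2 h were 263 with 3'SL, 577 with LPS and 492 with both in replicate 1, and 139 with PBS, 197 with 3'SL, 359.6 with LPS and 351 with both in replicate 2. Again the libraries with LPS were the higher ones in each replicate, and the fitted change was 1.71 ± 0.54 (SE; adjusted p = 0.144), with 1.37 within replicate 2. At 6 h p300 sums ran from 336 to 391 with LPS and 288 without in replicate 1, and the 2 sets overlapped in replicate 2. That p300 difference at 6 h was 0.47 and turned to -0.56 on the authors' scaling.

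Among the 6 Spi1 regions, the one 10.2 kb upstream with the NF-kB and AP-1 matches passed. Its H3K27ac at 2 h was 436 with PBS, 392 with 3'SL, 788 with LPS and 792 with both in replicate 1, and 359 with PBS, 349.8 with 3'SL, 968 with LPS and 947 with both in replicate 2. The 4 libraries with LPS were all above the 4 without, and the log2 change was 1.14 ± 0.25 (SE; adjusted p = 0.0248), or 0.85 within replicate 1 and 1.43 within replicate 2. Leaving out any 1 of the 4 PBS and LPS libraries raised the adjusted p to between 0.0631 and 0.176. At 6 h it was 485 with 3'SL, 779 with LPS and 808 with both in replicate 1, and 409 with PBS, 334 with 3'SL, 759 with LPS and 639 with both in replicate 2, with a change of 0.91 ± 0.30 (SE; adjusted p = 0.217). Its p300 at 2 h was 18.4 with PBS and 88.1 with LPS in replicate 2, and 93.1 with 3'SL and 237 with LPS in replicate 1 (2.91 ± 0.84 SE, adjusted p = 0.0853). This region had the highest mean p300 of the gene, 34.7% of its sum. The region with the most H3K27ac, 12.1 kb upstream, had 0.42 ± 0.36 (SE; adjusted p = 0.612), and the promoter region 53 bp from the start had 0.69 ± 0.31 (SE; adjusted p = 0.248).

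Cebpa, the C/EBP gene of early myeloid fate, had lower H3K27ac sums with LPS, which did not pass. It fell at single regions, while others went the other way. At 2 h the sums were 1005 with PBS, 883 with 3'SL, 484 with LPS and 565 with both in replicate 1, and 1567 with PBS, 1365 with 3'SL, 973 with LPS and 1047 with both in replicate 2. At 6 h they were 919.9 with 3'SL, 369 with LPS and 431 with both in replicate 1, and 1194 with PBS, 1252 with 3'SL, 611 with LPS and 769 with both in replicate 2. Within each replicate and time, each library with LPS was below each one without, although replicate 2 with LPS overlapped replicate 1 without it at 2 h. The fitted changes were -0.87 ± 0.47 (SE; adjusted p = 0.357) at 2 h and -1.33 ± 0.57 (SE; adjusted p = 0.394) at 6 h, and within replicate 2 they were -0.69 and -0.96. The p300 sums at 6 h were 186 with 3'SL, 60.3 with LPS and 79.3 with both in replicate 1, and 174 with PBS, 189.8 with 3'SL, 82.3 with LPS and 129 with both in replicate 2, with a change of -1.29 ± 0.54 (SE; adjusted p = 0.557). At 2 h the p300 sums of replicate 2 with and without LPS overlapped. Of 9 regions tested in H3K27ac at 2 h, 3 had log2 changes above 0, up to 1.01, and 0 of them passed. Whole H3K27ac tags at +8.6 kb were 62 with PBS and 123 with LPS in replicate 1, and 86 and 341 in replicate 2. Those PBS libraries held 12.1 and 8.67 M tags, and those LPS libraries 16.8 and 13.2 M, so the whole tags overstate the difference. Whole p300 tags there were 0 with PBS, 5 with 3'SL, 26 with LPS and 39 with both in replicate 2. In replicate 1 they were 1 with 3'SL, 10 with LPS and 4 with both. In the same order, these p300 libraries held 3.20, 4.15, 5.11 and 5.40 M tags in replicate 2, and 15.98, 15.0 and 18.1 M in replicate 1.

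At the Cebpa promoter, 2 overlapping windows fell. The one 1177 bp upstream held 195 with PBS, 178 with 3'SL, 46.8 with LPS and 71.7 with both in replicate 1, and 207 with PBS, 189.9 with 3'SL, 72.2 with LPS and 86.2 with both in replicate 2 at 2 h. Libraries with and without LPS did not overlap, and the log2 change was -1.77 ± 0.32 (SE; adjusted p = 0.0117). By 6 h it held 151 with 3'SL, 33.6 with LPS and 33.1 with both in replicate 1, and 142 with PBS, 152 with 3'SL, 26.3 with LPS and 41.7 with both in replicate 2, a change of -2.22 ± 0.39 (SE; adjusted p = 0.0355) with -2.39 within replicate 2. The window 735 bp upstream, the one with the most H3K27ac of the gene, fell at 2 h by a log2 change of -1.59 ± 0.33 (SE; adjusted p = 0.02) and had -1.99 ± 0.40 (SE; adjusted p = 0.0537) at 6 h. Its 2 h call was lost without any 1 of the 4 libraries (adjusted p from 0.0581 to 0.144) and on the authors' scaling. The window nearest the start, 120 bp upstream, had a log2 difference of -1.21 ± 0.34 (SE; adjusted p = 0.0689). Without 1 library the adjusted p of the window at 1177 bp ran from 0.0373 to 0.0912 at 2 h and from 0.0944 to 0.195 at 6 h, where edgeR and the authors' scaling also lost the call. Both windows had at most 10.2 normalised p300 tags in any library and did not pass the p300 filter.

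The Cebpa region 20.3 kb upstream (chr7:35098909-35099109, intergenic) had the most p300 of the gene, and it fell at 6 h. At 2 h it held 57.5 with 3'SL, 9.36 with LPS and 9.86 with both in replicate 1, and 67.4 with PBS, 71.98 with 3'SL, 22.7 with LPS and 14.05 with both in replicate 2. At 6 h p300 was 58.1 with 3'SL, 0 with LPS and 10.6 with both in replicate 1, and 63.9 with PBS, 81.1 with 3'SL, 4.84 with LPS and 7.16 with both in replicate 2. Libraries with LPS were below those without at both times, and the change was -2.12 ± 0.95 (SE; adjusted p = 0.304) at 2 h and -4.75 ± 0.95 (SE; adjusted p = 0.0392) at 6 h, with -3.47 within replicate 2. The 6 h call was lost without either LPS library (adjusted p 0.0556 and 0.186), by edgeR and on the authors' scaling. H3K27ac there was 124 with PBS, 96.1 with 3'SL, 15.6 with LPS and 18.4 with both in replicate 1, and 454 with PBS, 381 with 3'SL, 54.7 with LPS and 84.5 with both in replicate 2 at 2 h. It was lower with LPS in each replicate, but the replicates differed several fold, and the change of -2.97 ± 1.06 (SE; adjusted p = 0.143) did not pass.

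Cebpb did not pass in either mark at either time. H3K27ac sums ran from 252 to 474 with a median of 337, and the fitted changes were -0.08 ± 0.28 (SE; adjusted p = 0.924) at 2 h and -0.50 ± 0.35 (SE; adjusted p = 0.64) at 6 h. Sums of p300 at 2 h were 71.2 with 3'SL, 136 with LPS and 97.3 with both in replicate 1, and 61.2 with PBS, 50.3 with 3'SL, 115 with LPS and 171 with both in replicate 2. The libraries with LPS were the higher ones in each replicate, with a change of 1.02 ± 0.53 (SE; adjusted p = 0.446), which did not pass. At 6 h the p300 change was 0.03. The promoter window 27 bp from the start and the overlapping window at 156 bp, in the gene's only exon, made up 43.5% and 54.6% of the H3K27ac sum. At 2 h their log2 differences were -0.13 and -0.02.

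Cebpd, a C/EBP gene induced in inflammation, had the largest H3K27ac change among the member regions tested, far from its start. The overlapping regions 97.1 kb and 97.8 kb downstream rose at both times. H3K27ac at +97.1 kb was 10.2 with PBS, 3.37 with 3'SL, 124 with LPS and 116 with both in replicate 1, and 7.21 with PBS, 3.27 with 3'SL, 166 with LPS and 134 with both in replicate 2 at 2 h. At 6 h it was 3.36 with 3'SL, 197 with LPS and 164 with both in replicate 1, and 8.93 with PBS, 12.2 with 3'SL, 295 with LPS and 144 with both in replicate 2. The libraries with and without LPS did not overlap, and the log2 change was 3.91 ± 0.50 (SE; adjusted p = 0.00336) at 2 h and 4.61 ± 0.62 (SE; adjusted p = 0.013) at 6 h. Within replicate 1 it was 3.48 at 2 h, and within replicate 2 it was 4.34 at 2 h and 4.90 at 6 h. At +97.8 kb the changes were 4.09 ± 0.40 (SE; adjusted p = 0.00129) and 3.81 ± 0.49 (SE; adjusted p = 0.0124). Both calls at 2 h were kept without each of the 4 libraries in turn, with adjusted p up to 0.0403, while both at 6 h were lost without either LPS library (adjusted p up to 0.119).

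At +97.1 kb p300 was at most 1.37 normalised tags in every library without LPS. The values were 1.37 with 3'SL, 93.6 with LPS and 88.7 with both in replicate 1, and 0 with PBS, 0 with 3'SL, 216 with LPS and 157 with both in replicate 2 at 2 h. They were 1.32 with 3'SL, 43.1 with LPS and 67.4 with both in replicate 1, and 0 with PBS, 0 with 3'SL, 67.8 with LPS and 41.1 with both in replicate 2 at 6 h. Both PBS libraries had 0 tags, so within replicate 2 p300 was at least 35.3-fold higher with LPS at 2 h and at least 21.9-fold higher at 6 h, taking 3 tags in that PBS library as the floor. This bound covers counting error only. The fitted log2 change, which depends on the pseudocount and is no bound, was 7.16 ± 0.96 (SE; adjusted p = 0.000922) at 2 h and 5.78 ± 0.96 (SE; adjusted p = 0.013) at 6 h. The 2 h call was kept by edgeR and without either LPS library, and was lost on the authors' scaling; that at 6 h was lost in all of these. The window at +97.8 kb, whose centre is 704 bp away, had p300 of 0 with 3'SL, 14.7 with LPS and 4.93 with both in replicate 1, and 16.3 with PBS, 1.36 with 3'SL, 9.95 with LPS and 7.02 with both in replicate 2 at 2 h. There the libraries with LPS lay above the one without in replicate 1, and between PBS and 3'SL in replicate 2.

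The rest of the Cebpd locus did not pass. Its promoter window, 11 bp upstream, had an H3K27ac log2 difference of 0.33 ± 0.53 (SE; adjusted p = 0.814) at 2 h and -0.79 ± 0.64 (SE; adjusted p = 0.67) at 6 h. The window with the most H3K27ac, 2830 bp downstream at the transcript's end, had 0.29 at 2 h. Summed over 13 regions, H3K27ac was 972 with PBS, 1044 with 3'SL, 1663 with LPS and 1777 with both in replicate 1, and 2633 with PBS, 2251 with 3'SL, 3596 with LPS and 3527 with both in replicate 2 at 2 h. Replicate 2 was higher than replicate 1 in all groups, and within each replicate at 2 h the libraries with LPS were above those without. The change was 0.61 ± 0.64 (SE; adjusted p = 0.689), or 0.77 and 0.45 within replicates 1 and 2. At 6 h the fitted value was -0.30, whereas within replicate 2 it was 0.15. Sums of p300 at 2 h were 123 with 3'SL, 274 with LPS and 248 with both in replicate 1, and 179.6 with PBS, 175 with 3'SL, 564 with LPS and 421 with both in replicate 2, a change of 1.13 ± 0.51 (SE; adjusted p = 0.358) with 1.65 within replicate 2.

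The limit of 100 kb passes close to these Cebpd regions. Just inside it lie 2 more Cebpd windows, at 99.1 kb and 99.4 kb, with H3K27ac changes of 2.15 and 2.03 at 2 h, and a Runx1 window at 99.4 kb with -2.01. Just outside it lie Maf regions 101.2 kb and 107.2 kb upstream, which had too few tags to test, and 3 Maf regions at +109.1 kb, +109.5 kb and +109.7 kb. Their H3K27ac log2 differences at 2 h were -1.64, -1.67 and -1.66, none of which passed (adjusted p = 0.0692, 0.0554 and 0.0525).

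**Figure D3:**
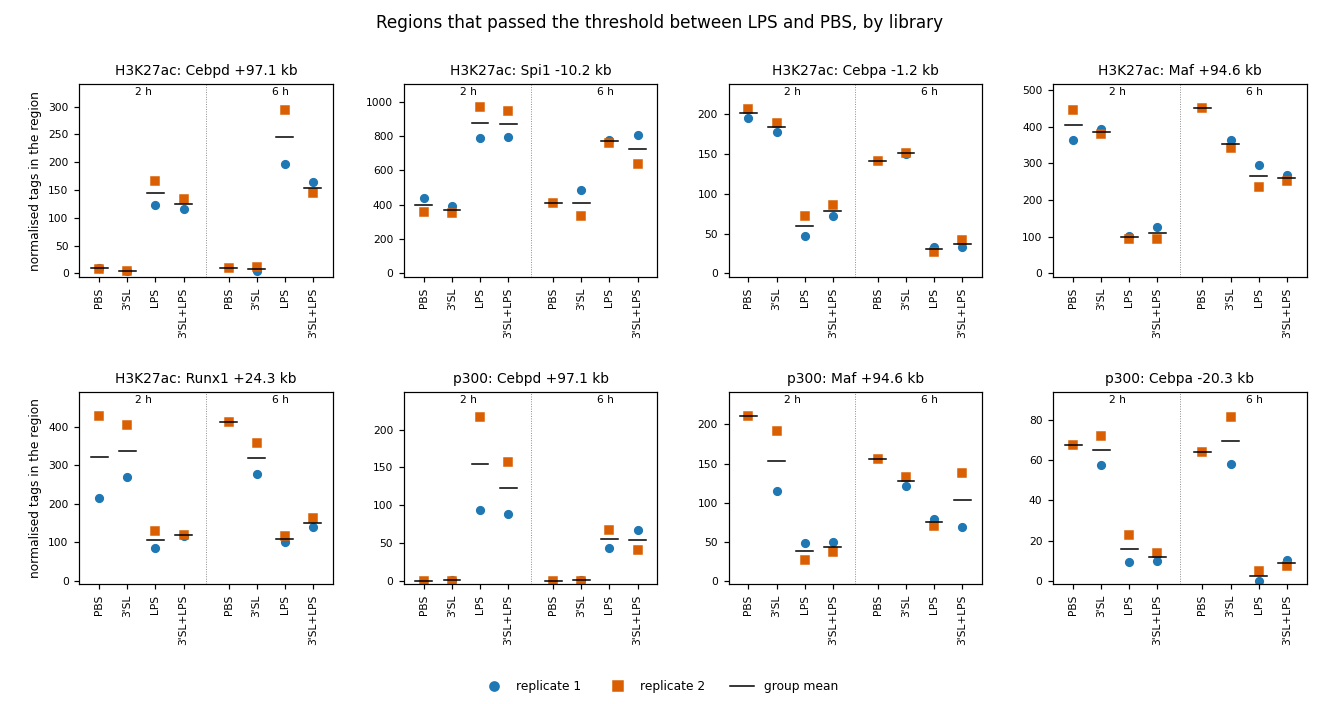
Normalised tags (y axis, linear, from 0) by treatment and time (x axis) at 8 regions that passed between PBS and LPS, 5 in H3K27ac and 3 in p300; circles are replicate 1, squares replicate 2, and bars group means. At Maf +94.6 kb the 4 libraries with LPS at 2 h lie between 93.0 and 126 normalised H3K27ac tags, and those at 6 h between 235 and 294.

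Maf, the gene of c-Maf, lost acetylation at 2 h in a cluster of regions about 90 kb downstream of its start. The strongest was at +94.6 kb, with H3K27ac of 363 with PBS, 392 with 3'SL, 101 with LPS and 126 with both in replicate 1, and 446 with PBS, 381 with 3'SL, 94.1 with LPS and 92.97 with both in replicate 2 at 2 h. The libraries with and without LPS did not overlap, and the log2 change was -2.03 ± 0.25 (SE; adjusted p = 0.00296), with -1.83 and -2.23 within replicates 1 and 2. By 6 h it was 362 with 3'SL, 294 with LPS and 269 with both in replicate 1, and 450.0 with PBS, 342 with 3'SL, 235 with LPS and 250.5 with both in replicate 2, a change of -0.77 ± 0.31 (SE; adjusted p = 0.314), with -0.93 within replicate 2. Leaving out each of the 4 libraries kept the 2 h call, with adjusted p up to 0.0389.

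The overlapping Maf windows at +92.5 kb and +92.6 kb, the latter with the most H3K27ac of the gene, fell by 1.73 and 1.71 on the log2 scale at 2 h (adjusted p = 0.00719 and 0.00584). That at +88.3 kb, which holds an AP-1 match, fell by 1.78 (adjusted p = 0.0155), and lost its call without any 1 of the 4 libraries. At +92.6 kb the values were 439 with PBS, 447 with 3'SL, 153 with LPS and 199 with both in replicate 1, and 639 with PBS, 480.0 with 3'SL, 169 with LPS and 193 with both in replicate 2. The 6 h changes of these 3 windows were -0.72, -0.72 and -0.64, and did not pass. The Maf promoter window, 46 bp upstream, had a log2 difference of -0.18 at 2 h (adjusted p = 0.897).

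By limma, p300 fell in the same stretch at 2 h. At +94.6 kb p300 was 115 with 3'SL, 48.2 with LPS and 49.3 with both in replicate 1, and 210.2 with PBS, 192 with 3'SL, 27.01 with LPS and 36.3 with both in replicate 2 at 2 h, with a change of -2.51 ± 0.62 (SE; adjusted p = 0.0424) and -2.91 within replicate 2. At +92.5 kb it was 71.2 with 3'SL, 14.7 with LPS and 11.1 with both in replicate 1, and 89.8 with PBS, 66.6 with 3'SL, 7.11 with LPS and 21.1 with both in replicate 2, a change of -3.01 ± 0.74 (SE; adjusted p = 0.0412). In both windows each library with LPS was below each one without. Both limma calls were lost by edgeR, with a pseudocount of 5, on the authors' scaling and without either LPS library, and that at +94.6 kb also with no filter on low tags. At 6 h the p300 differences were -1.05 and -1.49.

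Summed over 22 regions, Maf H3K27ac was 2864 with PBS, 2958 with 3'SL, 1987 with LPS and 2122 with both in replicate 1, and 4320.0 with PBS, 3756 with 3'SL, 2094 with LPS and 2529 with both in replicate 2 at 2 h. At 6 h it was 2873 with 3'SL, 2819.5 with LPS and 2685 with both in replicate 1, and 4232 with PBS, 3963 with 3'SL, 3618 with LPS and 3506 with both in replicate 2. In both marks, each replicate and both times, the libraries with LPS were below those without. The fitted H3K27ac change was -0.79 ± 0.29 (SE; adjusted p = 0.151) at 2 h and -0.41 ± 0.35 (SE; adjusted p = 0.723) at 6 h. For p300 it was -1.24 ± 0.46 (SE; adjusted p = 0.23) at 2 h, from sums of 572 with 3'SL, 337 with LPS and 324 with both in replicate 1, and 739 with PBS, 724 with 3'SL, 290.0 with LPS and 439 with both in replicate 2.

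Mef2c, a MADS-box factor gene, was also lower with LPS in both marks, each replicate and both times. Its H3K27ac sums at 2 h were 2603 with PBS, 2796 with 3'SL, 2416 with LPS and 2214 with both in replicate 1, and 3458 with PBS, 4071 with 3'SL, 2099 with LPS and 2247 with both in replicate 2. The changes were -0.41 ± 0.33 (SE; adjusted p = 0.574) at 2 h and -0.74 ± 0.40 (SE; adjusted p = 0.513) at 6 h. Sums of p300 at 2 h were 435 with 3'SL, 250.2 with LPS and 304 with both in replicate 1, and 649 with PBS, 967 with 3'SL, 229 with LPS and 366 with both in replicate 2. The p300 changes were -1.44 ± 0.52 (SE; adjusted p = 0.221) at 2 h and -1.11 ± 0.52 (SE; adjusted p = 0.605) at 6 h, with -1.50 and -1.19 within replicate 2. None of the 25 tested Mef2c regions passed in H3K27ac, and 21 of them were below 0 at 2 h. Of these, 5 had an unadjusted p under 0.05. The region with the most p300, in an intron 1510 bp upstream of the nearest annotated start, held 84.9 with 3'SL, 24.1 with LPS and 27.1 with both in replicate 1, and 186 with PBS, 323 with 3'SL, 32.7 with LPS and 86.6 with both in replicate 2 at 2 h (-2.68 ± 0.87 SE, adjusted p = 0.133). The region with the most H3K27ac, at +36.1 kb, had a log2 difference of -1.33 ± 0.46 (SE; adjusted p = 0.136). Mef2c regions were annotated to 7 start sites, so that distances refer to different promoters.

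Runx1, a factor needed for the birth of blood stem cells, had the most regions, and its sums did not pass. Its H3K27ac sums ran from 5017 to 6349 with a median of 5662, and the fitted difference at 2 h was -0.19 ± 0.21 (SE; adjusted p = 0.707). Inside it, 2 overlapping windows in intron 2 fell. At +24.3 kb H3K27ac was 214 with PBS, 268 with 3'SL, 84.2 with LPS and 116 with both in replicate 1, and 428 with PBS, 403 with 3'SL, 129.9 with LPS and 119.6 with both in replicate 2 at 2 h. The highest library with LPS was below the lowest without it, and the change was -1.52 ± 0.37 (SE; adjusted p = 0.0393), with -1.91 ± 0.46 (SE; adjusted p = 0.0896) at 6 h. At +25.0 kb it was -1.36 ± 0.34 (SE; adjusted p = 0.0442). Of the 4 left-out libraries, 3 ended each call, with adjusted p up to 0.294 and 0.322, and the authors' scaling ended both. One promoter window, 64 bp upstream, went the other way, with 307 and 283 with PBS and 515 and 528 with LPS. That change did not pass (0.82 ± 0.28 SE, adjusted p = 0.131). Runx1 regions were annotated to 4 start sites, so that distances refer to different promoters. At 96 bp from another start, the one that +24.3 kb refers to, a window held 322 and 371 whole tags with PBS at 2 h. With LPS it held 313 and 311. Those PBS libraries had 12.1 and 8.67 M tags, and those LPS libraries 16.8 and 13.2 M. Per library tag, this window was therefore lower with LPS in both replicates. The region with the most of both marks, 41.4 kb upstream, had log2 differences of 0.33 in H3K27ac and -0.40 in p300 at 2 h.

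Bhlhe40, a basic helix-loop-helix repressor known to restrain Il10, showed opposite orders in the 2 replicates. Its H3K27ac sums at 2 h were 1071 with PBS, 1152 with 3'SL, 684 with LPS and 849.8 with both in replicate 1, and 435 with PBS, 332 with 3'SL, 435 with LPS and 562 with both in replicate 2. At 6 h they were 809.6 with 3'SL, 539.7 with LPS and 619 with both in replicate 1, and 299 with PBS, 375 with 3'SL, 456 with LPS and 657 with both in replicate 2. The libraries with LPS were below those without in replicate 1 and above them in replicate 2, at both times and in both marks. The H3K27ac change at 2 h was -0.65 within replicate 1 and 0.00 within replicate 2, and the fitted change was -0.32 ± 0.60 (SE; adjusted p = 0.842). In replicate 2 at 2 h LPS alone and PBS were nearly equal. All 4 regions lie between 117 and 1915 bp upstream of the start, each overlapping the next.

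**Figure D4:**
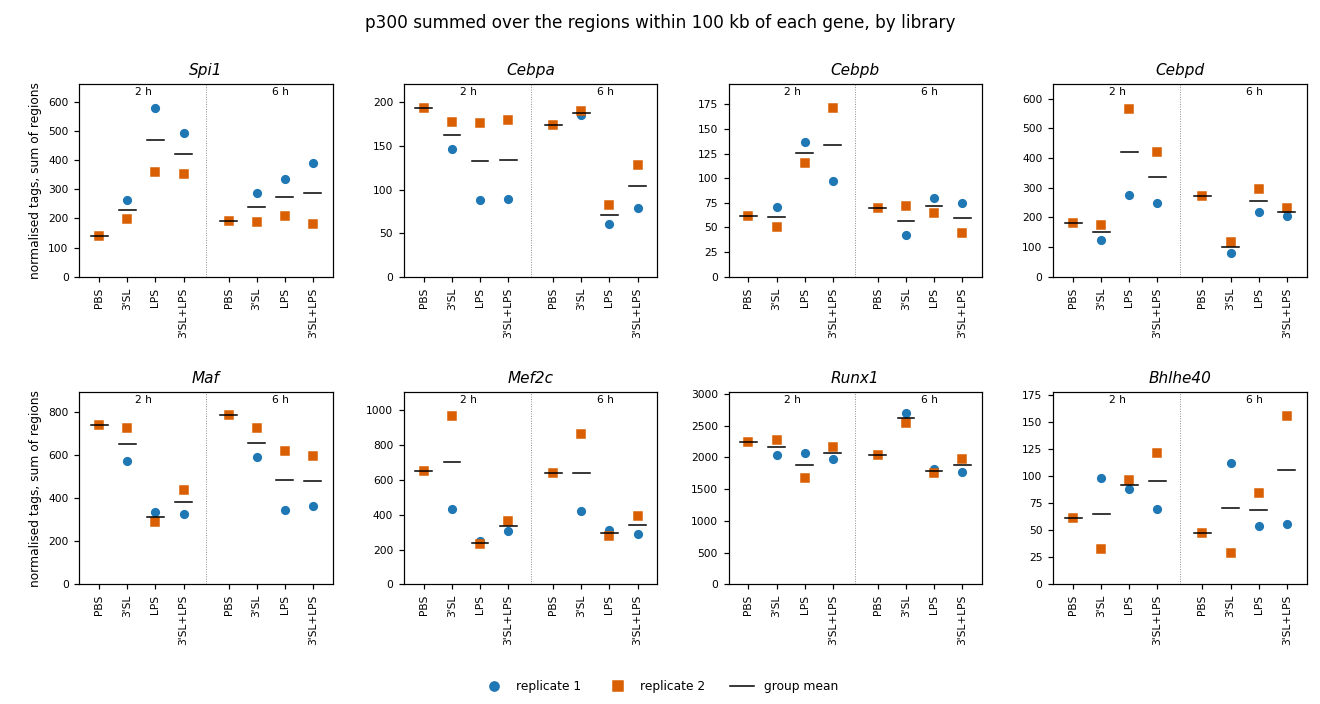
Summed p300 over the regions within 100 kb of each gene (y axis, normalised tags, from 0) in each library by treatment and time (x axis); circles are replicate 1, squares replicate 2, and bars group means. At 2 h the libraries with LPS lie above those without in the same replicate for Spi1, Cebpb and Cebpd, and below them for Maf and Mef2c; PBS has replicate 2 alone.

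The comparison of 3'SL with LPS against 3'SL alone uses other libraries than that of LPS against PBS, prepared under the same replicate numbers. At 2 h it gave 3 member regions that rose and 3 that fell in H3K27ac, against 1.64% and 0.817% of all regions. They were Cebpd at +97.1 kb (4.86) and +97.8 kb (3.24), Spi1 10.2 kb upstream (1.22), and Maf at +94.6 kb (-1.83), +92.6 kb (-1.24) and +88.3 kb (-1.58), all as log2 changes. At 6 h 2 rose and 1 fell, against 0.567% and 0.0762%: both Cebpd windows, and Cebpa 1177 bp upstream (-1.997 ± 0.32 SE, adjusted p = 0.0248). In p300 at 2 h 1 rose, Cebpd at +97.1 kb (6.27 ± 0.78 SE, adjusted p = 0.000953), and 1 fell, Maf at +92.6 kb (-2.46 ± 0.55 SE, adjusted p = 0.0351), against 1.08% and 0.109%. At 6 h 1 rose, again Cebpd at +97.1 kb, and 0 fell, against 0.215% and 0.0193%. These p300 calls are limma's, and no edgeR calls are given beside them.

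Adding 3'SL to LPS changed no member region past the threshold. Between LPS alone and 3'SL with LPS, 0 member regions passed in either mark at either time, and 0% of all regions did in each of these 4 comparisons (limma). At an unadjusted p under 0.05 there were 0 member regions in H3K27ac at both times, and 2 and 4 in p300 at 2 h and 6 h. The differences in H3K27ac sums at 2 h were 0.04 (95% interval -0.64 to 0.72) for Spi1, 0.16 (95% interval -0.87 to 1.20) for Cebpa, 0.03 (95% interval -1.38 to 1.44) for Cebpd, 0.18 (95% interval -0.45 to 0.81) for Maf and -0.01 (95% interval -0.74 to 0.71) for Mef2c on the log2 scale. Each interval holds 0, and a p above the threshold does not show that 3'SL left the genes alike. Within both replicates at 2 h, 7 of the 8 sums were higher with both agents than with LPS alone, Mef2c being lower in replicate 1 and Cebpd in replicate 2. Of 121 tested regions, 77 were higher in replicate 1 and 74 in replicate 2 (medians 0.13 and 0.19), whereas at 6 h 49 and 65 were. No share over all regions or genes is given for these differences within replicates, so the counts describe the members only. In 3'SL against PBS, 0 member regions passed in the 4 comparisons, where 0.0145% of all p300 regions did at 2 h and 0% in the other 3. Unadjusted p-values under 0.05 numbered 3 and 2 in H3K27ac, and 8 and 4 in p300, at 2 h and 6 h. The interaction of 3'SL with LPS gave 0 member regions and 0% of all regions, with 0 and 0 unadjusted in H3K27ac and 3 and 3 in p300.

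Over time within LPS, from 2 h to 6 h, 0 member regions passed and 0% of all regions did, with 9 member regions in H3K27ac and 7 in p300 at an unadjusted p under 0.05. The Maf sum differed by 0.65 in H3K27ac on the log2 scale between the LPS libraries of the 2 times, and by 0.41 between those with both agents. In both replicates the 6 h value was the higher one for Maf in each pair. The Cebpa sum differed by -0.53 within LPS, with the 6 h value lower in both replicates.

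The marks were set side by side at 101 member regions tested in both. Log2 changes between PBS and LPS had the same sign in H3K27ac and p300 at 66 regions (65.3%) at 2 h and at 76 (75.2%) at 6 h. Pearson's r across these regions was 0.54 at 2 h and 0.68 at 6 h. It is a description only, since regions overlap and share libraries, and the Cebpd window at +97.1 kb had the highest p300 change of the 101 at both times.

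**Figure D5:**
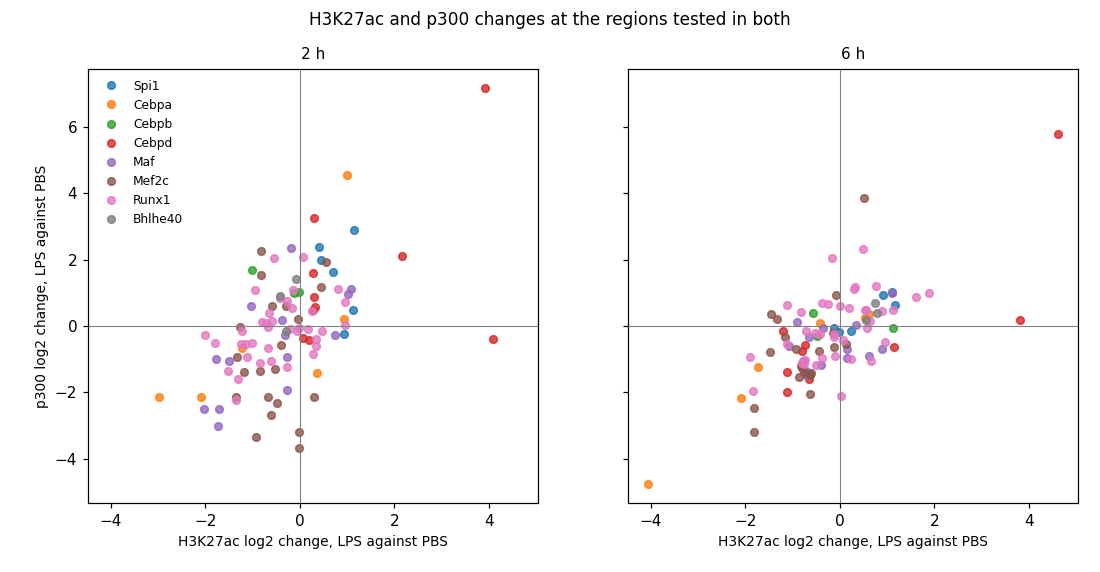
Log2 change between PBS and LPS in H3K27ac (x axis) and p300 (y axis) at the 101 member regions tested in both marks, at 2 h (left) and 6 h (right), coloured by gene. The Cebpd window at +97.1 kb is at the upper right in both panels, and the Cebpa region 20.3 kb upstream is at the lower left at 6 h.

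For each gene, the genes whose log2 H3K27ac sums followed it most closely over the 15 libraries were listed by Pearson's r. The libraries differ in replicate and in treatment, so r describes both together. Among 8355 genes with H3K27ac at or above the median, the 2 most like Spi1 were Cd2bp2 (r = 0.96) and Cop1 (0.96). Those most like Cebpa were Calm2 (0.96) and Klhl35 (0.96), and like Cebpd Mir6367 (0.96) and Ifngr2 (0.96), which encodes a chain of the interferon gamma receptor. For Maf they were Trmt61a (0.97) and Siva1 (0.96), and for Mef2c Camta1 (0.96) and Hmga2-ps1 (0.95). For Cebpb they were Rnf168 (0.92) and Stk35 (0.90), for Runx1 Agps (0.84) and Bmf (0.81), and for Bhlhe40 Mir7661 (0.91) and Pde4d (0.90).

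Other factors of the same families were counted in the same way. Of 47 listed C/EBP, ETS, MAF and BACH, MEF2, RUNX, basic helix-loop-helix and other myeloid factor genes, 46 were tested by their H3K27ac sums at 2 h. Among them 2 rose and 1 fell between PBS and LPS, beside 3.48% and 2.27% of all genes, with a median log2 change of -0.10 beside 0.09. The ones that rose were Ets2, an ETS factor (1.71 ± 0.32 SE, adjusted p = 0.0137), and Gfi1 (1.71 ± 0.39 SE, adjusted p = 0.0297). Gfi1 encodes a zinc finger repressor that acts in granulocyte and monocyte development. Tfeb, a regulator of lysosome genes, fell (-1.16 ± 0.29 SE, adjusted p = 0.0427). Mef2a, Mef2b and Mef2d had -1.31, -0.96 and -0.95 at 2 h, none of which passed. At 6 h 0 of 46 passed in H3K27ac. The p300 calls that follow are limma's, with no edgeR calls beside them. In p300, 44 were tested, and Gfi1 rose at 2 h (2.90 ± 0.48 SE, adjusted p = 0.0107) and at 6 h (3.43 ± 0.48 SE, adjusted p = 0.0294).

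Of 20 myeloid genes known to be bound by PU.1 or C/EBP factors, 19 were tested. In H3K27ac at 2 h 3 rose and 0 fell, beside 3.48% and 2.27% of all gene sums, with a median of 0.30: Il1b (2.60 ± 0.33 SE, adjusted p = 0.00272) and Il6 (2.08 ± 0.49 SE, adjusted p = 0.0338), which encode inflammatory cytokines, and Cybb (1.91 ± 0.34 SE, adjusted p = 0.0105), a subunit of the phagocyte oxidase. Csf1r, the M-CSF receptor, had -0.44 ± 0.30 (SE; adjusted p = 0.493). At 6 h 0 passed. For p300 only limma's calls are given here. In p300 Csf3r, the receptor for G-CSF, rose at 2 h (2.37 ± 0.48 SE, adjusted p = 0.0278), where 1.54% of all gene sums rose, and 0 of 19 passed at 6 h.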

How the data were processed

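H3K27ac and p300 were measured by ChIP-seq in bone marrow-derived macrophages. The submitters' processing notes name Bowtie2, HOMER, DESeq2 and mm10, without versions or roles. Per the file headers, HOMER's annotatePeaks counted tags over mm10 regions. The deposited signal is tags per window of 1000 bp (H3K27ac) or 200 bp (p300), which the authors normalised to 10000000 mapped tags. Whole tags were recovered from its steps in 100% of regions in every library (tolerance 0.05 tag).

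Values were rescaled by the tags in regions that passed edgeR's filter on low counts, corrected by TMM, and returned to the mean level of the authors' values. The log2 of value + 1 was tested with limma 3.58.1 (trended moderation, two-sided, R 4.3.3) in a group-means model over 15 H3K27ac or 14 p300 libraries, with 7 and 6 residual degrees of freedom. Benjamini-Hochberg adjustment ran over all 77387 or 62225 regions, or all 16710 or 15971 gene sums, with a threshold of 0.05. A lone PBS library was assumed to vary like the other groups. On simulated tags limma called more unchanged p300 features than its threshold allows and edgeR 4.0.16 did not. For member regions and sums between PBS and LPS, edgeR's p300 calls therefore stand beside limma's. The other p300 calls are limma's alone. DESeq2 1.42.0 was another alternative, with other scalings, pseudocounts, filters, a replicate block and left-out libraries. Replicates of each group differed beyond the sampling noise of their tags.

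Members, lists and rules were chosen with earlier results of these data known. Named regions were, per gene, the one nearest the start, those highest in each mark and with the smallest p at 2 h, and any that passed. Over 4 tables, 12 columns of values matched no sample and were not used. The deposited p65 peaks lie on another build, since 329 of 41220 end beyond mm10 chromosomes, and were not used against the regions. The deposited list of ATAC regions also holds a score per region, which no header explains and which was not used. Overlap with other peak lists used bedtools 2.31.1 and at least 1 shared base.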

Additional observations from a re-analysis of the deposited data

Results flagged for a closer look

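Peak lists outside the comparisons overlapped the member regions. Each of the 3 lists was made from the macrophages treated with GW3965 described above. The LXR list of 24480 peaks shared at least 1 base with 38 of 126 member regions (30.2%) and with 22.5% of all 97113 regions. Maf had the largest share, with 11 of its 22 regions, and Cebpd the smallest, with 2 of 13. The SREBP list of 27651 peaks overlapped 32 member regions (25.4%) against 22.2% of all, among them 13 of 42 at Runx1 and 0 of 4 at Cebpb. The p300 list, with 44251 peaks, overlapped 57 member regions (45.2%) against 34.1% of all, including 6 of 9 at Cebpa and 22 of 42 at Runx1. The Maf regions at +92.5 kb, +92.6 kb and +94.6 kb and the Runx1 region at +24.3 kb overlapped a peak of each of the 3 lists. The Cebpd region at +97.1 kb and the Cebpa windows at 1177 bp and 735 bp upstream overlapped a peak of none of them. Lists of different lengths differ in how much they can overlap, and no control list was used.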

How the results depend on the processing

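Counts of member regions that passed between PBS and LPS depended on the treatment of replicates. With the replicate number as a block, limma called 40 and edgeR 39 H3K27ac regions at 2 h, and 14 and 12 at 6 h, where the same fits called 23% of all regions at 2 h and 9.19% and 8.27% at 6 h. For p300 they called 9 and 8 at 2 h, and 4 and 4 at 6 h, beside 7.08% and 4.42% and 2.44% and 3.00% of all regions. Under the same replicate block 4 H3K27ac gene sums passed at 2 h by either tool (Spi1 and Cebpd higher, Cebpa and Maf lower) and 1 at 6 h (Cebpa lower), and for p300 at 2 h 4 by limma and 3 by edgeR. These fits called 23.3% and 23.6% of all H3K27ac gene sums at 2 h and 7.81% and 7.12% at 6 h, and 8.65% and 6.23% of all p300 sums at 2 h. The block also turned the Cebpd sum at 6 h to 0.23 by limma and 0.23 by edgeR in H3K27ac, and to 0.183 and 0.185 in p300. Libraries of one number deviated together, with correlations of 0.45 to 0.67 over 7 H3K27ac groups and 0.19 to 0.38 over 6 p300 groups, but 2 numbers do not show that the samples are paired. Comparisons of 3'SL with LPS against LPS kept 0 member regions under the block. Without the block, the authors' scaling gave 7 H3K27ac regions at 2 h and 0 p300 regions at 2 h and 0 at 6 h. DESeq2 called 18 and 9 H3K27ac regions at 2 h and 6 h and 1 H3K27ac gene sum at 2 h. For p300, a pseudocount of 5 gave 1 region at 2 h, and edgeR gave 1 at 2 h and 0 at 6 h. Leaving out single libraries gave 3 to 7 H3K27ac regions at 2 h, 0 to 0 at 6 h, and 1 to 1 p300 region at 2 h and 0 to 0 at 6 h. The lone PBS libraries could not be left out. For DESeq2, the authors' scaling, the pseudocount of 5 and the left-out libraries, no share over all regions or genes is given. Those counts describe the members only.

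Sums that did not pass also changed sign. In H3K27ac at 2 h, Cebpb ranged from -0.27 to 0.11 over the left-out libraries (0.11 without PBS replicate 2) and turned to 0.20 over merged transcription factor regions, Cebpd ranged from -0.10 (without PBS replicate 1) to 1.33, Runx1 turned to 0.029 within 20 kb, and Bhlhe40 ranged from -0.97 to 0.33 (0.0055 without LPS replicate 2, 0.33 without PBS replicate 1). At 6 h Cebpd ranged from -0.77 to 0.14 (without LPS replicate 1) and turned to 0.0006 over merged regions. In p300, the authors' scaling turned Bhlhe40 to -0.29 at 2 h and -0.50 at 6 h, Spi1 to -0.56 at 6 h and Cebpb to -0.99 at 6 h. Cebpb also turned to -0.13 without LPS replicate 1 and to -0.15 over windows that do not overlap, an alternative chosen after seeing the data, and Cebpd ranged from -0.32 to 0.11 (without LPS replicate 1) at 6 h. Apart from the effects that follow from fewer libraries, the cause was not tested. Among results for single genes and regions, 57 values lost their call under an alternative, 18 gained one and 550 kept direction and side of the threshold. The shallowest p300 library held 3.20 M tags (M, 1000000).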

Other observations

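The regions of Maf farther than 100 kb from its start were higher with LPS at several places, unlike the cluster near +90 kb. Of 53 such regions, 47 were tested in H3K27ac, and 4 rose and 2 fell at 2 h, while 3 rose and 0 fell at 6 h (limma). Over all regions tested, 3.08% rose and 2.07% fell at 2 h, and 0.544% and 0.132% at 6 h. The median log2 difference was 0.45 at 2 h and 1.26 at 6 h, with 29 and 36 regions above 0. The ones that fell, at +123.5 kb (-2.13 ± 0.29 SE, adjusted p = 0.00396) and +124.6 kb (-2.39 ± 0.32 SE, adjusted p = 0.00404), lie beyond 3 regions at +109.1 kb, +109.5 kb and +109.7 kb, which had -1.64, -1.67 and -1.66 and did not pass. The ones that rose at 2 h lie farther out, at +286.3 kb, +308.7 kb, +395.7 kb and +399.2 kb, the last 2 in intron 8 of Wwox, the neighbouring gene for an oxidoreductase. H3K27ac at +395.7 kb was 12.97 with PBS, 21.1 with 3'SL, 157 with LPS and 136 with both in replicate 1, and 16.5 with PBS, 29.4 with 3'SL, 137 with LPS and 112 with both in replicate 2 at 2 h. The libraries with LPS were all above those without, and the change was 3.24 ± 0.36 (SE; adjusted p = 0.00214) at 2 h and 2.71 ± 0.44 (SE; adjusted p = 0.0266) at 6 h. At +314.3 kb p300 was 24.6 with 3'SL, 144 with LPS and 155 with both in replicate 1, and 14.3 with PBS, 13.6 with 3'SL, 165 with LPS and 185 with both in replicate 2 at 2 h, again without overlap, with a change of 3.35 ± 0.63 (SE; adjusted p = 0.00992) at 2 h and 3.88 ± 0.63 (SE; adjusted p = 0.013) at 6 h. The p300 calls at +314.3 kb are limma's, and by edgeR, as above, no p300 region passed at 6 h. That region is not among those that rose in H3K27ac at 2 h. At +308.7 kb, +395.7 kb and +399.2 kb, which did, the p300 log2 changes at 2 h were 2.97, 0.73 and 1.34, none of which passed. All the regions in this paragraph were assigned to Maf as the nearest gene only.

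Runx1 had 8 regions beyond 100 kb, all tested in H3K27ac, and the one 258.4 kb upstream rose at both times. Its H3K27ac was 5.56 with PBS, 9.28 with 3'SL, 118 with LPS and 143 with both in replicate 1, and 20.6 with PBS, 13.5 with 3'SL, 121 with LPS and 144 with both in replicate 2 at 2 h. The lowest library with LPS was above the highest without it, and the change was 3.34 ± 0.52 (SE; adjusted p = 0.00616) at 2 h and 3.91 ± 0.63 (SE; adjusted p = 0.0266) at 6 h. In p300 the same region had a difference of 3.92 ± 1.12 (SE; adjusted p = 0.0848) at 2 h. Of the 6 Mef2c regions beyond 100 kb, 3 were tested in H3K27ac and none passed. All regions in these paragraphs were chosen after their values were seen.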
